A study of Mus musculus with 15 samples.

Results

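The heat shock proteins and chaperones form a family of 81 genes among the 21788 distinct symbols listed in 15 mouse libraries. They were chosen by name: symbols starting with Hsp and a family letter or digit, with Dnaja, Dnajb or Dnajc, or with Cct2 to Cct8, without pseudogenes and listed once. Of the 81, 66 were listed in all 4 tables into which the libraries fall by the genes they list: 75 in the bulk pair, 73 in the first set of sorted libraries, 79 in the second set, whose table also covers the KO label, and 71 in the 4 antibody libraries. The members were grouped by role, from what each gene product is known to do: 4 stress-inducible genes (Hspa1a, Hspa1b, Hsph1 and Dnajb1), 8 other cytosolic HSP70 genes, 2 cytosolic HSP90 genes, 13 genes of the endoplasmic reticulum (ER), 8 mitochondrial genes, 9 subunits of the TRiC chaperonin or their relatives, 6 small heat shock proteins, and 28 other J-domain genes (11 of classes A and B, 17 of class C). The remaining 3 symbols, Hspb11, Hspbp1 and Hspbap1, carry the Hspb prefix without encoding small heat shock proteins.

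All libraries came from tumours of female mice aged 9 to 11 weeks, taken on day 21 after E.G7 cells had been placed under the skin. E.G7 is a mouse thymoma line that carries ovalbumin (OVA). The bulk pair held OVA-specific CD8+ tumour-infiltrating cells, 1 library from wild-type C57BL/6 mice and 1 from mice labelled B7S1 KO, with 6 mice in each group. The sorted libraries held PD-1+ CD8+ cells in 3 gates: B7S1R_SP (Tim-3- B7S1R+), TIM-3_SP (Tim-3+ B7S1R-) and DN (negative for both), with 2 numbered wild-type libraries and 1 library labelled KO each. The antibody libraries were Control, anti_B7S1, anti_PD1 and combo, 1 each, from mice labelled wild type; the labels give no dose or schedule and do not say which T cell gate these 4 held. Groups were taken from the titles, because in most of the sorted libraries the strain entry carries a running number in place of 6, as do 2 of the B7S1 KO genotype entries. The gene that encodes B7S1, Vtcn1, was not lower under the KO label, so the label is used here as given and was not borne out by this gene: it was at 0.0687 RPKM in the bulk wild-type library and 9.46 RPKM in the bulk library labelled KO, and it was listed at 0 FPKM in the 3 wild-type libraries of set 2 and at 0.16, 2.5 and 1.02 FPKM in those labelled KO. Nothing in the labels says that the numbered libraries came from separate mice. The p-values between gates therefore rest on the spread between these libraries, which may be technical. For genotype labels each gate gives 1 library per label, so those p-values rest on how the difference varies between gates.

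Molecular chaperones bind unfolded proteins and help them to fold, to move between compartments or to be degraded. HSP70 proteins work in cycles of ATP hydrolysis that J-domain proteins start and nucleotide exchange factors such as Hsph1 end, while HSP90 proteins mature kinases and receptors and the ring-shaped TRiC complex folds actin and tubulin. The transcription factor HSF1 drives the inducible genes through heat shock elements, and the unfolded protein response drives the ER chaperones through ER stress response elements. Activated T cells make much protein, and T cells taken from tissue can switch on inducible heat shock genes while they are being prepared.

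The promoter sequences of the members that carry these elements are shown first, because the values below are ordered by the same branches. RefSeq (GRCm38.p6) gave promoters for 67 members, each running from 250 bases before to 50 bases after the start of transcription. A heat shock element was searched as GAANNTTCNNGAA on both strands (its reverse is TTCNNGAANNTTC) and was found in 198 of 32851 promoters (0.603%), among them those of 4 members: Hspd1, Hspe1, Dnajb6 and Hsph1. Hspd1 and Hspe1 lie head to head and their windows overlap, so the pair of overlapping matches there is shared, and only the strand of Hspd1 is printed (chr1:55087883-55088182, minus strand). The Dnajb6 window is chr5:29735648-29735947 (plus strand) and that of Hsph1 is chr5:149636287-149636586 (minus strand), where the match lies after the start. The capitals mark the matches.
Hspd1: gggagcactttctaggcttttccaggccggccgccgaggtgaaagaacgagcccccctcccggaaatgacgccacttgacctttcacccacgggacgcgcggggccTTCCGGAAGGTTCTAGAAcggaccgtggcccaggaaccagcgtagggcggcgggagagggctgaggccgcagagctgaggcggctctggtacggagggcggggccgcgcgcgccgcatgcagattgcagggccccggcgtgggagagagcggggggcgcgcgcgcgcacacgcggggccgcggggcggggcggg
Dnajb6: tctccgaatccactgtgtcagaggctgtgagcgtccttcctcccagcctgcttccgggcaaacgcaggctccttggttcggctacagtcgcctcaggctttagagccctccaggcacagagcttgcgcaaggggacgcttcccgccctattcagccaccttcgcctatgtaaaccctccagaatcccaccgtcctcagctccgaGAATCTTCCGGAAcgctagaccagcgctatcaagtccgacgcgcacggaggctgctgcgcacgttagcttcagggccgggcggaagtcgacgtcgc
Hsph1: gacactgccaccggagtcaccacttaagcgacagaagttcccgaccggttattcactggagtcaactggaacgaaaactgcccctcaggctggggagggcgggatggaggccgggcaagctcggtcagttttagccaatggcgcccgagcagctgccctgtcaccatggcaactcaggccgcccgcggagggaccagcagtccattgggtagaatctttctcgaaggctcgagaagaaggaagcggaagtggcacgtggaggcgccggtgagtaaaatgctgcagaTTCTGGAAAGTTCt
No match to these letters was found in the windows of Hspa1a, Hspa1b and Dnajb1. Only this exact spelling within these windows was searched, so an element in another form or place would be missed. An ER stress response element was searched as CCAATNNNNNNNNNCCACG on both strands (its reverse is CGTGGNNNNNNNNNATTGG) and was found in 39 of the 32851 promoters (0.119%), among them those of 3 ER members: Hspa5 (chr2:34771840-34772139, plus strand), Hsp90b1 (chr10:86705395-86705694, minus strand, with 2 matches) and Dnajc3 (chr14:118937682-118937981, plus strand). Capitals again mark the matches.
Hspa5: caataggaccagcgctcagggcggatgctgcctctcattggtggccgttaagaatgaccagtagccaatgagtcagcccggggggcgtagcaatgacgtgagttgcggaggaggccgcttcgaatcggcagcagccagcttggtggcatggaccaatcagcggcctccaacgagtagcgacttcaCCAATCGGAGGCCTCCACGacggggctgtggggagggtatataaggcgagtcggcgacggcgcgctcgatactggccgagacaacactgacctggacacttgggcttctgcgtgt
Hsp90b1: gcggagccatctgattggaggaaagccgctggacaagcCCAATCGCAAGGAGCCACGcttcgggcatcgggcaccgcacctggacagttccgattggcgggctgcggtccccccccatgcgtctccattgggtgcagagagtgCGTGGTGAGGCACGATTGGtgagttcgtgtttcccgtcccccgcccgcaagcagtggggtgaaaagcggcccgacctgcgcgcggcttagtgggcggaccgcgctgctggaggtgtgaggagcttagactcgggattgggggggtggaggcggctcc
Dnajc3: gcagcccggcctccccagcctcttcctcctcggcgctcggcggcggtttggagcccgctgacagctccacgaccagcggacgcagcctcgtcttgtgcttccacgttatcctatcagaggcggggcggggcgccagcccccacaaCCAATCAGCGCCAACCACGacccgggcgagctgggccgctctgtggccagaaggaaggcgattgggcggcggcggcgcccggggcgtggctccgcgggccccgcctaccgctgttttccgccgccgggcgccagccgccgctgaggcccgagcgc
A match describes the sequence and is not a measured binding site. Hspa1a and Hspa1b cannot be told apart reliably by short reads: their longest open reading frames, of 1926 and 1929 bases, are 99.5% identical.

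Members took 0.646% to 0.699% of the summed RPKM in the bulk pair, 0.382% to 0.901% of the summed FPKM in the 9 sorted libraries, and 1.27% to 1.99% in the antibody libraries. The depth behind the values is unknown, since the files give no counts. From 5752 genes in the Control library to 10362 in B7S1R_SP_WT_1 were at 1 or more. All 10 listed T cell markers were at 1 or more in every library. In bulk samples fewer cells of a type and less RNA per cell cannot be told apart. The libraries of set 2 differed from those labelled KO in haemoglobin: the 4 listed erythroid genes summed to 11149, 95193 and 66159 FPKM in B7S1R_SP, TIM-3_SP and DN of set 2, and to 4.72, 11.0 and 142 FPKM in the same gates labelled KO.

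Hspa8, the constitutive cytosolic HSP70, was the highest member per length in 11 of the 15 libraries, with 1079 and 1071 RPKM in the bulk pair, 440 to 1135 FPKM in the sorted libraries and 1822 to 4751 FPKM in the antibody libraries. Hspe1, the mitochondrial co-chaperonin of Hspd1, led in 3 libraries (991 FPKM in B7S1R_SP_WT_2, 851 in B7S1R_SP_KO and 859 in DN_KO), and Dnajc15, a J-domain protein of the mitochondrial inner membrane, led in TIM-3_SP_KO with 489 FPKM. The TRiC subunits Cct2, Cct3, Cct4, Cct5, Cct6a, Cct7 and Cct8 were all present in every library, from 44.4 FPKM (Cct4 in Control) to 437 FPKM (Cct5 in B7S1R_SP_WT_2). The small heat shock proteins were the lowest group: Hspb1 reached 46.5 FPKM in anti_PD1 but was listed at 0 in 8 libraries, Hspb6 reached 13.0 FPKM in B7S1R_SP_WT_2 and Hspb7 6.24 FPKM in TIM-3_SP_WT_1. The others of that group, Hspb2, Hspb8 and Hspb9, stayed at 2.48 or less.

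The inducible members stood at different levels in the differently processed tables, which are set side by side here and not compared by a test. Hspa1a was at 204 and 116 RPKM in the bulk pair and at 0 to 3.62 FPKM in the 6 sorted libraries that list it. Hspa1b was at 78.5 and 59.2 RPKM in bulk and at 0.11 to 2.92 FPKM in those sorted libraries. Hsph1 was at 202 and 246 RPKM in bulk and at 4.40 to 26.0 FPKM in the 9 sorted libraries. Dnajb1, the J-domain partner of the inducible HSP70, varied less, with 70.7 and 68.3 RPKM in bulk and 17.1 to 56.5 FPKM after sorting. Hspa5, the ER HSP70, stood the other way round, with 7.44 and 4.28 RPKM in bulk and 105 to 418 FPKM in the sorted libraries. Both Hspa1 genes were missing from the table of set 1.

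**Figure D1:**
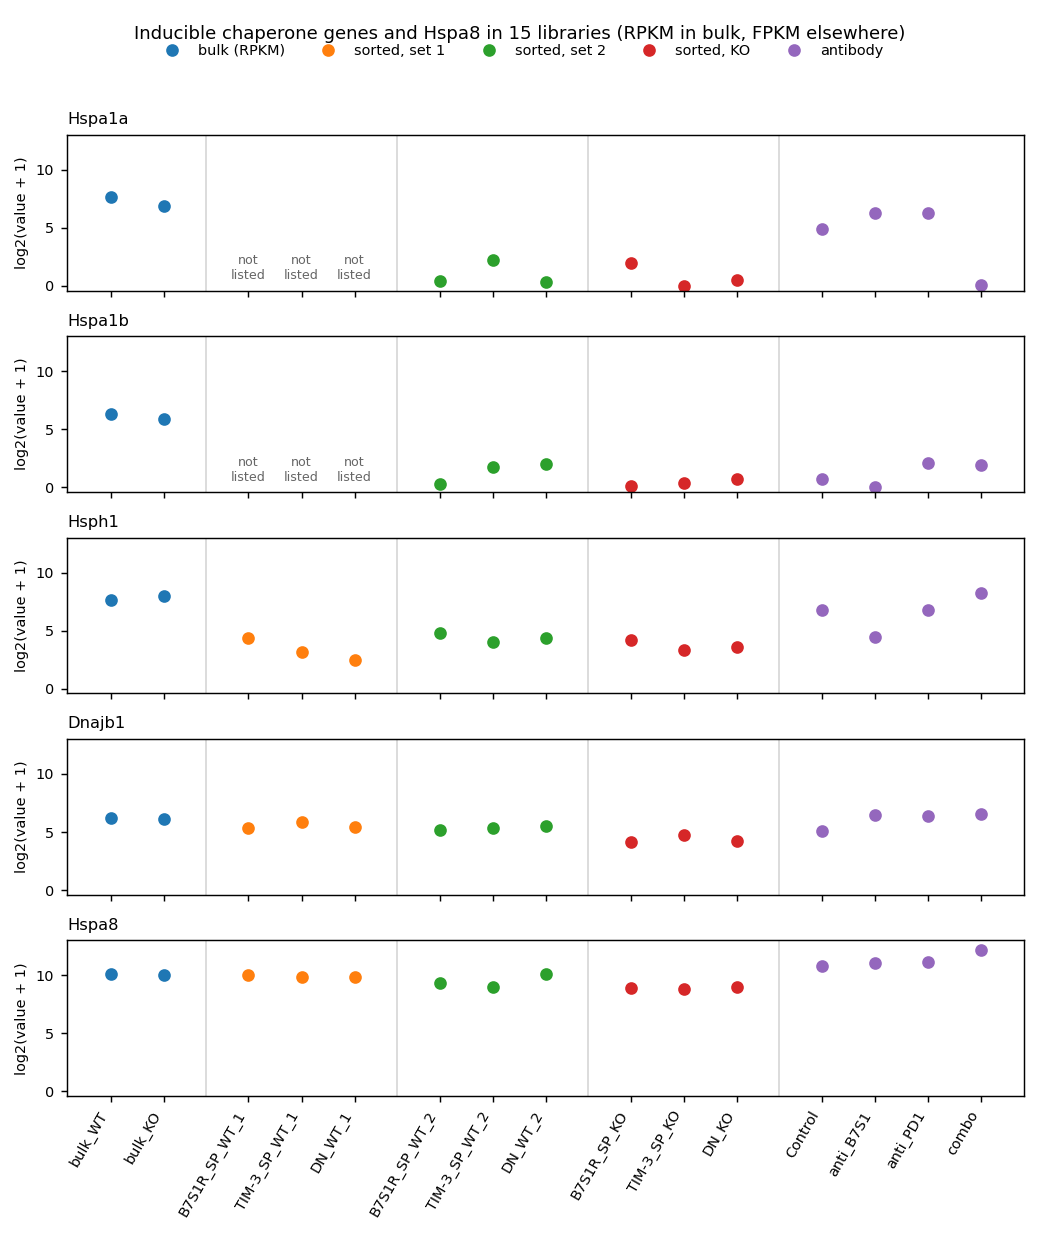
Level of the 4 inducible genes and Hspa8, as log2(value + 1), in each of the 15 libraries (RPKM in bulk, FPKM elsewhere); each point is 1 library and colours mark the tables. Hspa1a and Hspa1b are near 0 in the sorted libraries and high in the bulk pair, Hspa8 is high in all, and Hspa1a stands at 78.1 and 75.4 FPKM in the single antibody libraries and at 0.05 FPKM in combo.

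The sorted populations were compared first among the 6 wild-type libraries, which asks whether the checkpoint receptors on a PD-1+ cell go with a different chaperone programme. No member passed limma's test on log2(FPKM + 1) at an adjusted p under 0.05 in any of the 3 comparisons, where 65 of the 72 members listed in both sorted tables passed the filter of a mean of 1 FPKM, and no other gene did either (0% of 10411 genes in each). At an unadjusted p under 0.05, limma gave 0 of 65 members in TIM-3_SP against DN beside 3.44% of all genes, 3 in B7S1R_SP against TIM-3_SP (all higher) beside 4.74%, and 2 in B7S1R_SP against DN (1 in each direction) beside 2.69%. The median member differed by -0.30 on the log2 scale between TIM-3_SP and DN (all genes -0.17), by 0.25 between B7S1R_SP and TIM-3_SP (all genes 0.16) and by -0.04 between B7S1R_SP and DN (all genes -0.03). These medians rested on scaling and on single libraries: after median-centring they were -0.08, 0.07 and -0.0007. Without B7S1R_SP_WT_1 the median between B7S1R_SP and TIM-3_SP was -0.02 (all genes -0.18) and without B7S1R_SP_WT_2 it was 0.42 (all genes 0.51), while that between B7S1R_SP and DN was -0.30 and 0.11. Leaving out 1 library moved the median between TIM-3_SP and DN to between -0.32 and -0.16. The fits quoted here did not block on the replicate number, so their SE includes the difference between sets. With that block limma still called 0 members, and 0 of all genes in B7S1R_SP against DN. Of all genes it called 2 higher in TIM-3_SP against DN and 1 higher and 6 lower in B7S1R_SP against TIM-3_SP. What follows are therefore values and their order, none of them past the test.

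TRiC subunits were mostly lowest in TIM-3_SP. Between TIM-3_SP and DN, 7 of the 8 tested TRiC genes were lower in TIM-3_SP in set 1, in set 2 and under the KO label. Their medians were -0.70, -0.61 and -0.39 on the log2 scale, beside 0, -0.33 and -0.06 for all genes. Of all genes, 49.6%, 34.2% and 43.4% were higher in TIM-3_SP, so part of the difference in set 2 was shared by all genes. The count in the fit, 7 of 8 lower, was the same after median-centring and after quantile normalization. Against B7S1R_SP, TIM-3_SP was the lower gate for 6 of 8 TRiC genes in set 1, 6 in set 2 and 7 under the KO label. Of all genes, 54.2%, 54.4% and 59.2% were higher in B7S1R_SP. Cct3 was at 70.9 and 80.1 FPKM in the wild-type TIM-3_SP libraries and at 147 and 123 FPKM in DN, a fitted difference of -0.83 ± 0.74 (SE, n = 2 against 2, limma adjusted p = 1). Cct2 was at 62.2 and 88.0 FPKM in TIM-3_SP, at 121 and 135 in DN and at 153 and 173 in B7S1R_SP. Its wild-type libraries thus did not overlap between any pair of gates. Under the KO label Cct2 was at 96.7 FPKM in TIM-3_SP, 112 in DN and 108 in B7S1R_SP. Cct5 was at 196 and 169 FPKM in TIM-3_SP, 246 and 337 in DN and 274 and 437 in B7S1R_SP.

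Over all members, 18 of 65 (27.7%) were lower in both TIM-3_SP libraries than in both DN libraries, near the 23.3% of all genes, and 5 (7.69%) were higher, beside 7.99% of all genes. Among the 18 were 6 TRiC subunits, the cytosolic J-domain genes Dnaja1 and Dnajb6, and Dnajb9. Among the 5 was Hsp90b1, the HSP90 of the ER, at 169 and 146 FPKM in TIM-3_SP against 73.2 and 132 in DN and 131 and 77.2 in B7S1R_SP. The others higher in TIM-3_SP were Dnaja4, Dnajc9, Dnajc11 and Dnajc12. Among members that kept 1 direction in both sets, Dnajc11, a protein of the mitochondrial contact sites, had the largest positive estimate (1.57 ± 0.90, SE), at 14.0 and 5.22 FPKM in TIM-3_SP and 4.21 and 1.03 in DN, followed by Hspa4l, Dnajb12, Dnaja4 and Hsp90b1 (1.07 to 0.67). Dnajc4 had the largest negative one (-1.93 ± 1.16, SE), resting on set 1 (1.45 FPKM against 32.1) more than on set 2 (27.8 against 29.8), followed by Hspb1, Hspb6, Hspa2 and Hspbap1 (-1.70 to -1.29). The limma adjusted p was 1 for all of these.

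B7S1R_SP had more cytosolic HSP90 and mitochondrial chaperonin RNA than TIM-3_SP in each set. Hsp90aa1 was at 337 and 903 FPKM in the wild-type B7S1R_SP libraries and at 235 and 384 in TIM-3_SP; under the KO label the values were 669 and 255. Hsp90ab1 was at 879 and 282 FPKM in B7S1R_SP and at 442 and 163 in TIM-3_SP, and at 198 and 145 under the KO label. Both genes were higher within each set, but the sets differed so much in level that the 2 gates overlapped, and limma gave 0.88 ± 0.84 and 0.89 ± 0.92 (SE, n = 2 against 2, adjusted p = 0.999 for both). Hspd1 is the mitochondrial chaperonin whose promoter is printed above. It was at 115 and 172 FPKM in B7S1R_SP, 51.1 and 59.5 in TIM-3_SP and 53.1 and 89.6 in DN. Among wild-type libraries those of B7S1R_SP thus lay above all others (limma 1.33 ± 0.77 against TIM-3_SP, SE, n = 2 against 2, adjusted p = 0.999). Under the KO label Hspd1 was at 96.55 FPKM in B7S1R_SP, 48.1 in TIM-3_SP and 90.4 in DN. Its neighbour Hspe1 was at 206 and 991 FPKM in B7S1R_SP, 140 and 384 in TIM-3_SP and 221 and 398 in DN, which overlapped. For correlations over the 9 sorted libraries, log2 values were centred within set 1 and within set 2 together with the KO label. This leaves the difference between genotype labels in them. Hspd1 and Hspe1 then correlated at r = 0.65, Hsp90aa1 and Hspd1 at 0.88 and Hsp90aa1 and Hsp90ab1 at 0.43. These are descriptions over 9 libraries that share batches and gates.

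In B7S1R_SP against TIM-3_SP, 10 of 65 members (15.4%) were higher in both libraries than in both of the other gate, beside 15.9% of all genes, and 8 (12.3%) were lower, beside 9.45%. Against DN, 8 (12.3%) were higher, beside 12.2%, and 10 (15.4%) were lower, beside 17.2%. These shares were near those of all genes. Dnajb9, an ER J-domain protein that holds Ire1 in check, was ordered by gate in both wild-type sets: 133 and 88.2 FPKM in DN, 42.7 and 50.4 in TIM-3_SP and 20.2 and 36.1 in B7S1R_SP. The fitted difference between B7S1R_SP and DN was -1.96 ± 0.77 (SE, n = 2 against 2, limma adjusted p = 1). The libraries labelled KO did not keep this order, with 42.6, 57.5 and 38.4 FPKM. Dnajb3, a J-domain gene of low level, was at 6.20 and 4.31 FPKM in the wild-type B7S1R_SP libraries and listed at 0 in all 4 wild-type libraries of the other gates. Hspbap1 and Dnajc27 came next among the members higher in B7S1R_SP than in TIM-3_SP (6.92 and 4.63 FPKM against 0.30 and 0.91, and 3.31 and 3.63 against 0.37 and 0.14), then Hspd1 and Cct2. On the lower side stood Dnaja4, Hspa4l, Dnajc14, Dnajc21 and Dnajb9, with estimates of -1.40 to -0.76. Dnajc21, which acts in ribosome assembly, was also lower in B7S1R_SP than in DN, at 1.81 and 8.11 FPKM against 9.13 and 28.6 (-1.77 ± 0.93, SE, n = 2 against 2, limma adjusted p = 1), ahead of Dnajc30, Dnajc17 and Dnajc14. Higher than in DN, after Dnajb3, were Hspb11, Dnajc11, Hsph1 and Dnajc27 (1.42 to 1.08).

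The inducible genes did not separate the gates together. Hsph1 was at 19.5 and 26.0 FPKM in B7S1R_SP, 7.79 and 14.8 in TIM-3_SP and 4.40 and 19.7 in DN, so B7S1R_SP lay above TIM-3_SP without overlap (limma 1.00 ± 0.90, SE, n = 2 against 2, adjusted p = 0.999). Dnajb1 was at 40.6 and 35.0 FPKM in B7S1R_SP, 56.5 and 39.4 in TIM-3_SP and 41.5 and 45.4 in DN, lowest in B7S1R_SP within each set.

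**Figure D2:**
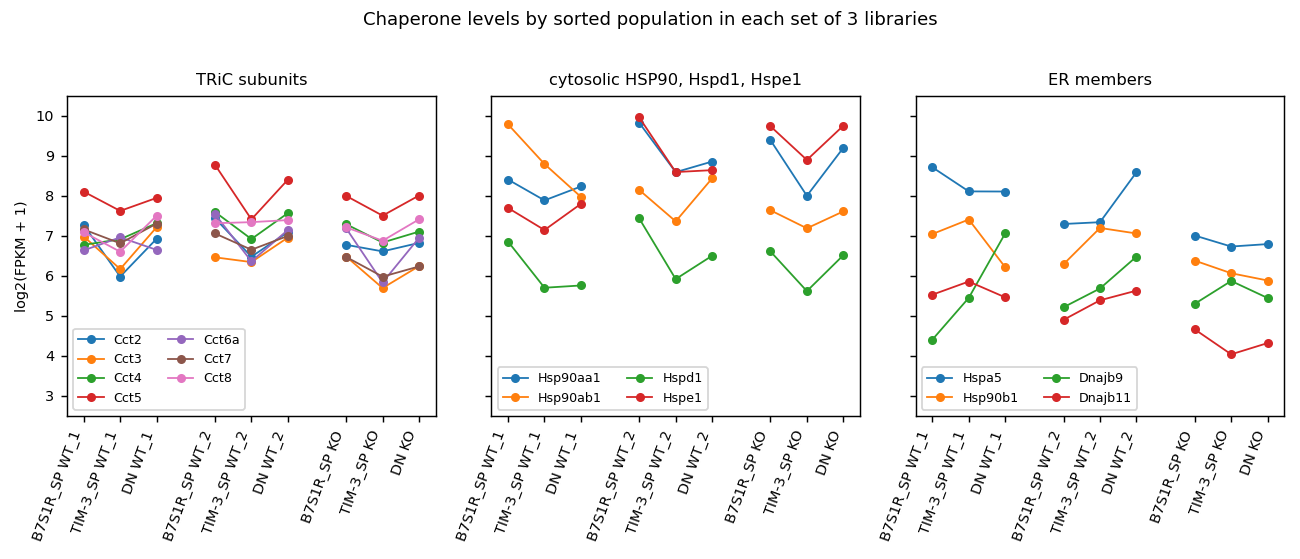
Level as log2(FPKM + 1) of 7 TRiC subunits, of cytosolic HSP90 and the mitochondrial chaperonins, and of 4 ER members in the 3 gates, drawn for wild-type set 1, wild-type set 2 and the libraries labelled KO; each point is 1 library and lines join libraries of 1 set. Most TRiC subunits dip in TIM-3_SP in each set, Hsp90aa1 and Hspd1 are higher in B7S1R_SP than in TIM-3_SP in each set, and Dnajb9 climbs from B7S1R_SP to DN in both wild-type sets and not under the KO label.

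Markers of other cells moved with the same gates. All 10 tested T cell markers were lower in B7S1R_SP than in TIM-3_SP (median -1.001 on the log2 scale, 0 called, also after both rescalings), and the list summed to 5019 and 2417 FPKM in B7S1R_SP against 7337 and 9104 in TIM-3_SP. All 4 tested class II genes were higher in B7S1R_SP (median 3.87, 0 called), summing to 2128 and 173 FPKM against 63.6 and 60.1. Macrophage markers were higher for 7 of 9 genes (median 2.61, 0 called) and summed to 314 and 674 FPKM against 120 and 145. Their part in the differences in Hsp90aa1, Hspd1 and Hsph1 was not tested. The same lists stood apart between B7S1R_SP and DN, with all 10 T cell markers lower in B7S1R_SP (median -1.17), 7 of 9 macrophage markers and all 4 class II genes higher (medians 2.89 and 2.59) and 13 of 15 genes of the dissociation and immediate early list lower (median -0.85, 10 of 15 after quantile normalization). Between TIM-3_SP and DN, 7 of 10 T cell markers were higher in TIM-3_SP (median 0.08), all 4 class II genes were lower (median -1.40, 3 of 4 after either rescaling), both tested neutrophil genes were higher (median 0.98), and 11 of 15 genes of the dissociation list were lower (median -0.53). None of these genes was called, and their part in the TRiC, Hsp90b1 and Dnajb9 values was not tested. The neighbours of the chaperones in their pathways showed no call in these comparisons. Of 17 tested genes for HSF1 and its co-chaperones, 14 were lower in TIM-3_SP than in DN (median -0.64), Hsf1 itself standing at 9.51 and 5.96 FPKM in TIM-3_SP, 31.6 and 26.6 in DN and 24.0 and 16.7 in B7S1R_SP; after median-centring 12 of the 17 were lower. Of 19 tested genes of the unfolded protein response, 12 were lower in TIM-3_SP (median -0.25), and of 6 prefoldin genes, which pass substrates to TRiC, 4 were higher (median 0.04).

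The sorted libraries labelled KO were compared with the wild-type libraries of set 2, which list the same genes. Each gate gives 1 library per label, so neither label is replicated within a gate. In this comparison n counts different gates, SD is the spread between gates, and SE reflects how the difference varies between gates. The comparison is of labels: Vtcn1, the gene named as deleted, was listed at 0 in those wild-type libraries and above 0 under the KO label. Most members were lower under the KO label, and this was a shift of many small differences: 52 of 63 tested members had a negative estimate and 11 a positive one, with a median of -0.36 on the log2 scale, while 40.5% of all 10097 genes had a positive one and their median was -0.16. No member passed limma's test with the population as a block (smallest adjusted p = 0.367), and 4 of all genes did (0.0396%, all lower under the KO label). At an unadjusted p under 0.05, limma gave 6 members, 1 higher and 5 lower, beside 12.4% of all genes. The split depended on the scaling: after the libraries were centred on their medians, 38 members were lower and 25 higher (member median -0.08, all genes 0.12), and after quantile normalization 44 were lower and 19 higher (member median -0.23).

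Of the 63 members, 24 (38.1%) were lower under the KO label in all 3 gates, beside 23.5% of all genes, and 4 (6.35%) were higher in all 3, beside 14.1%. In 11 members (17.5%) every library labelled KO lay below every wild-type library, beside 9.99% of all genes, and in 2 (3.17%) every one lay above, beside 5.11%. With median-centred libraries the 11 became 5 (7.94%, all genes 5.40%). The median difference was -0.16 in B7S1R_SP (all genes -0.02), -0.27 in TIM-3_SP (all genes -0.04) and -0.67 in DN (all genes -0.38). A test of whether the genotype difference itself differed between gates, over 9 sorted libraries, called none of 64 members and none of 10178 genes with limma (96 genes at an unadjusted p under 0.05).

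Among the inducible genes, Dnajb1 separated the labels. It was at 35.0, 39.4 and 45.4 FPKM in wild-type B7S1R_SP, TIM-3_SP and DN (mean 39.9 ± 5.25 SD, n = 3) and at 17.1, 26.4 and 18.1 FPKM under the KO label (mean 20.5 ± 5.14 SD, n = 3), so no library labelled KO reached a wild-type one. The fitted difference was -0.94 ± 0.37 (SE, limma adjusted p = 0.392). Hsph1 was at 26.0, 14.8 and 19.7 FPKM in wild type and 17.6, 9.08 and 10.7 under the KO label, lower in each gate but overlapping between labels (-0.67 ± 0.36, SE, n = 3 against 3, limma adjusted p = 0.473). Hspa1b was at 0.24, 2.42 and 2.92 FPKM against 0.11, 0.31 and 0.61. Hspa1a, at 0.31, 3.62 and 0.23 FPKM against 2.84, 0 and 0.41, had no common direction, and its estimate turned from -0.15 to 0.13 after median-centring.

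In the cytosol, Hspa8 was at 659, 507 and 1135 FPKM in wild type and at 488, 440 and 516 FPKM under the KO label, lower in each gate with a small overlap between labels (-0.59 ± 0.39, SE, n = 3 against 3, limma adjusted p = 0.537). Hspa4, a nucleotide exchange factor for HSP70, was at 26.6, 14.2 and 21.5 FPKM against 16.9, 11.3 and 13.2. Hsp90ab1 was at 282, 163 and 345 FPKM against 198, 145 and 194, while Hsp90aa1 was lower in 2 gates and higher in DN (903, 384 and 462 against 669, 255 and 586). All 6 tested J-domain genes of classes A and B outside the other roles had negative estimates, 5 of them after either rescaling. Dnajb4 had the largest negative estimate of them, at 35.8, 44.5 and 64.5 FPKM against 12.0, 29.4 and 11.7 (-1.48 ± 0.46, SE, n = 3 against 3, limma adjusted p = 0.367), and Dnajb6 was at 105, 154 and 176 against 89.0, 99.2 and 103. Neither of these overlapped between labels.

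All 8 tested TRiC genes had negative estimates (median -0.36), 6 after median-centring and 8 after quantile normalization. Cct7 did not overlap between labels, at 132, 99.5 and 127 FPKM in wild type and 87.7, 62.1 and 74.3 under the KO label (-0.67 ± 0.36, SE, n = 3 against 3, limma adjusted p = 0.470). Cct8 was nearly level, with 162 ± 4.52 FPKM (SD, n = 3) in wild type and 144 ± 26.4 (SD, n = 3) under the KO label. Of the 6 prefoldin genes, 5 had positive estimates (median 0.18), none of them called.

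In the ER, 9 of 11 tested members had negative estimates (median -0.49), 7 after median-centring and 8 after quantile normalization. Hspa5 was at 156, 161 and 383 FPKM in wild type and at 128, 105 and 110 under the KO label, without overlap (-0.90 ± 0.44, SE, n = 3 against 3, limma adjusted p = 0.445). Dnajb11, its J-domain partner in the lumen, was at 28.9, 40.9 and 48.5 FPKM against 24.3, 15.4 and 19.0. Dnajc1, a J-domain protein of the ER membrane, had the largest negative estimate of all members, at 9.23, 8.20 and 16.6 FPKM against 3.33, 2.49 and 3.19 (-1.57 ± 0.38, SE, n = 3 against 3, limma adjusted p = 0.367). Hsp90b1 was at 77.2, 146 and 132 FPKM against 82.2, 65.9 and 58.0, lower in TIM-3_SP and DN. Dnajb9 was at 36.1, 50.4 and 88.2 FPKM against 38.4, 57.5 and 42.6, lower in DN alone. Dnajc3, an ER inhibitor of the kinase Perk, was at 7.29, 12.2 and 24.5 FPKM against 9.92, 13.9 and 11.9, and Dnajc10, an ER disulfide reductase, at 10.6, 15.1 and 9.71 against 9.17, 5.07 and 10.7. Of 19 tested genes of the unfolded protein response, 13 had negative estimates (median -0.47, 0 called), and the ER chaperone Calr was at 156, 143 and 155 FPKM against 87.2, 72.7 and 53.6.

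Only 4 of the 11 members with a positive estimate were higher in all 3 gates: the mitochondrial Dnajc15 and Dnajc19, Hspb11 and Dnajc24. The other 7 were Hspe1, Hspbp1, the ER members Dnajb12 and Hspa13, the HSP110 relative Hspa4l, and Dnajc6 and Dnajc25. Dnajc15 was at 257, 324 and 333 FPKM in wild type (mean 305 ± 41.8 SD, n = 3) and at 473, 489 and 577 FPKM under the KO label (mean 513 ± 55.9 SD, n = 3), without overlap (0.76 ± 0.36, SE, limma adjusted p = 0.435). Dnajc19, a J-domain protein of the import motor of the inner membrane, was at 248, 152 and 121 FPKM against 346, 240 and 328, higher in each gate (0.85 ± 0.39, SE, n = 3 against 3, limma adjusted p = 0.425). Hspb11, which encodes a protein of intraflagellar transport, was at 179, 37.4 and 32.8 FPKM against 432, 70.9 and 343 (1.84 ± 0.55, SE, n = 3 against 3, limma adjusted p = 0.367). Dnajc24, which acts in diphthamide synthesis, was at 49.0, 38.4 and 26.0 FPKM against 49.4, 61.3 and 50.8. Of the 6 mitochondrial members besides Dnajc15 and Dnajc19, 5 had negative estimates and Hspe1 a positive one (median -0.33), and after median-centring 4 were lower and 2 higher (median -0.05). Hspa9, the mitochondrial HSP70, was at 25.2, 26.7 and 30.8 FPKM against 38.9, 6.70 and 31.8, and its J-domain partner Dnaja3 at 9.16, 10.3 and 23.9 against 12.6, 5.57 and 7.87. The 10 tested partners of mitochondrial folding outside the family went both ways too, 6 lower and 4 higher (median -0.15), and 4 lower and 6 higher after median-centring. Cct6b, Dnajc17 and Hspb6 completed the members with the largest negative estimates (-1.10, -1.02 and -0.98, limma adjusted p = 0.392, 0.392 and 0.433), with Dnajc17 at 15.3, 31.5 and 29.7 FPKM against 11.9, 12.8 and 10.1.

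**Figure D3:**
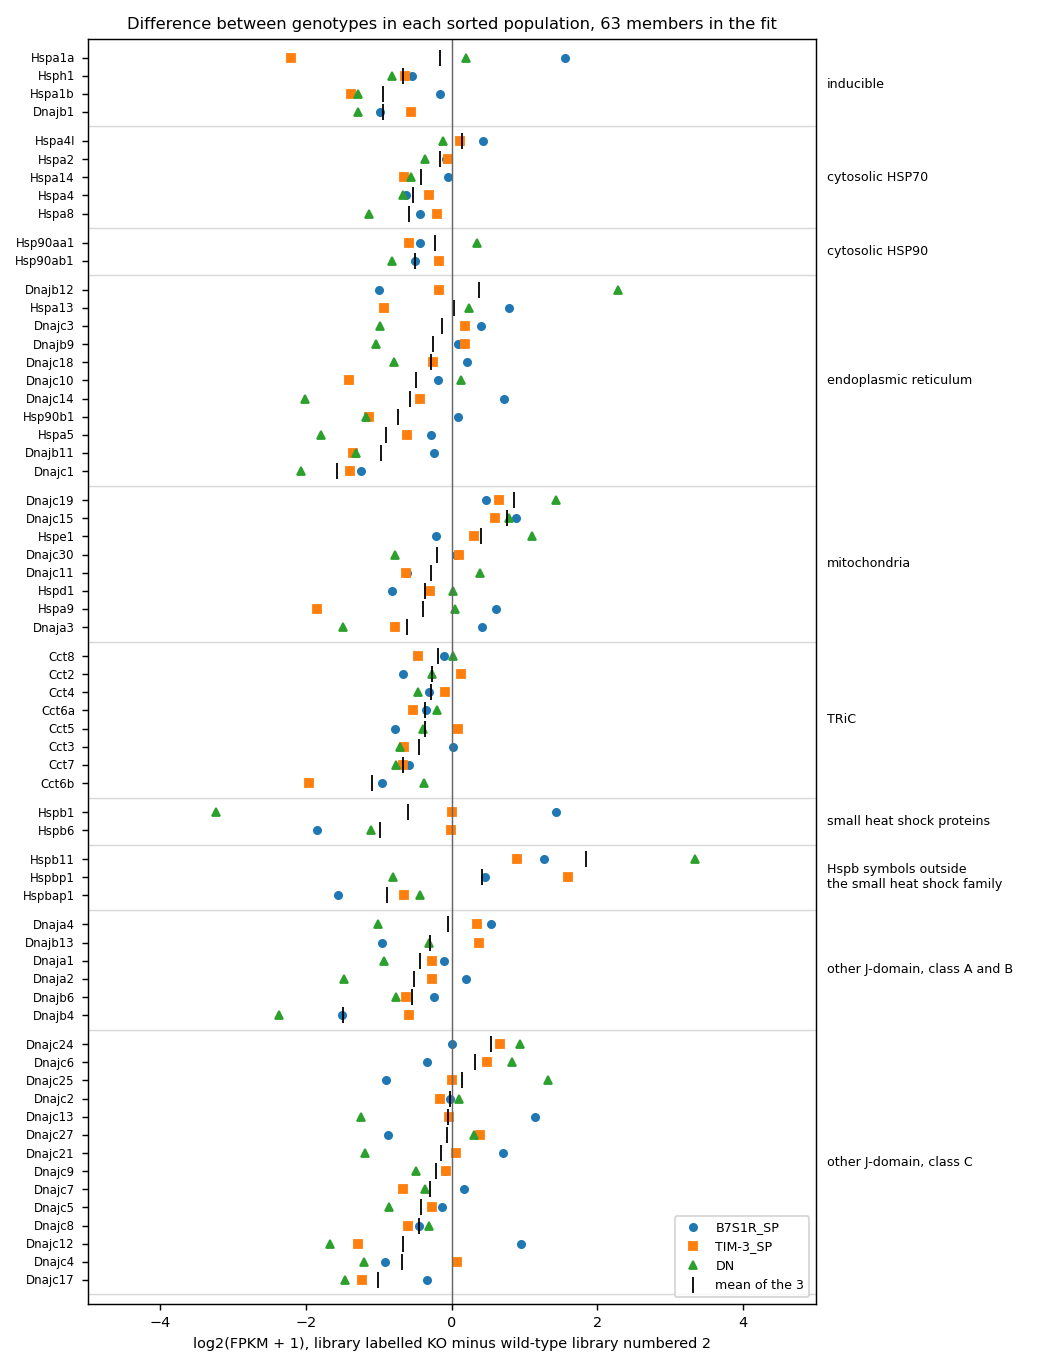
Difference in log2(FPKM + 1) between the library labelled KO and the wild-type library of set 2 in B7S1R_SP (circles), TIM-3_SP (squares) and DN (triangles) for the 63 members in the fit, by role; the black bar is the mean of the 3. Most points lie left of 0, while Dnajc15, Dnajc19 and Hspb11 lie right of it in all 3 gates.

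Other gene lists moved with the genotype label. All 15 tested genes of the dissociation and immediate early list were lower under the KO label (median -1.17, 0 called), also after both rescalings, and the list summed to 559, 1211 and 2365 FPKM in the wild-type gates and to 497, 561 and 370 under the KO label. Jun was at 3.49, 11.2 and 18.1 FPKM against 3.85, 5.34 and 3.57. All 10 T cell markers were lower (median -0.76, 0 called; 7 of 10 after median-centring), summing to 2417, 9104 and 6351 FPKM against 2181, 6761 and 3510. All 5 class II genes were higher (median 1.22, 0 called), summing to 173, 60.1 and 182 FPKM against 2618, 104 and 93.6. Macrophage markers were higher for 10 of 14 genes and lower for 4 (median 0.54, 0 called). They summed to 674, 145 and 138 FPKM against 6298, 186 and 263. Hba-a1, Hba-a2 and Hbb-bs, 3 of the 4 erythroid genes, passed the test and fell, with estimates of -10.42, -11.44 and -10.79 on the log2 scale (limma adjusted p = 0.0154, 0.0253 and 0.0182). The part of these differences in the chaperone values was not tested. HSF1 and its co-chaperones had 15 of 19 negative estimates (median -0.40, 0 called), 11 after median-centring. Neutrophil, B cell, NK, stromal and CD4+ T cell lists had 1 or 2 genes in the fit each, none called. The co-chaperone Stip1, which links HSP70 to HSP90, was at 59.96, 49.1 and 60.9 FPKM against 36.9, 10.4 and 43.5.

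The bulk pair, with 1 library per genotype and therefore no test, showed few members past a 2-fold ratio on RPKM + 1. Of 52 members with at least 5 RPKM in the higher library, 3 (5.77%) were higher in the library labelled KO, beside 10.7% of all 6075 genes, and 3 (5.77%) were lower, beside 12.1%. The member median was -0.08 on the log2 scale and that of all genes -0.02. Hspa4l, an HSP110 relative, was at 8.14 RPKM in wild type and 20.5 under the KO label, Dnajc4 at 14.3 and 30.8, and the splicing-associated Dnajc8 at 114 and 233. Lower were Hspb6 (6.39 and 0.18 RPKM), Dnajc17 (9.84 and 2.10) and Dnajb14 (9.20 and 3.27). Hspa1a was at 204 RPKM in wild type and 116 under the KO label and Hspa1b at 78.5 and 59.2, while Hsph1 was at 202 and 246 and Dnajb1 at 70.7 and 68.3, so no inducible gene passed the fold. Hspa8 differed little, with 1079 and 1071 RPKM, and Hsp90ab1 was at 896 and 614.

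Set beside the sorted libraries, Hspb6 and Dnajc17 were lower under the KO label in both designs, and Hspb11 was higher in both (36.1 and 67.4 RPKM in bulk). Of 51 members measured in both designs, 29 were lower in both, 4 higher in both and 18 (35.3%) went opposite ways. Over 5728 genes, 1731 were lower in both, 1072 higher in both and 2925 (51.1%) went opposite ways. Most members were lower in each design by itself, 52 of 63 in sorted cells and 33 of 52 in bulk. This alone makes opposite directions less frequent. The 18 members with opposite directions included 15 that were lower in sorted cells and higher in bulk, among them Dnajb6, Dnajc1, Dnajc4, Dnajc8 and Hsph1. For 3 it was the other way round: Dnajc15, Dnajc19 and Hspe1. Dnajc1 was at 4.66 and 6.14 RPKM and Dnajb6 at 7.62 and 13.0 RPKM in the bulk wild-type and KO-labelled libraries. Dnajc15 was at 633 RPKM in bulk wild type and 476 under the KO label, and Dnajc8 was at 213, 250 and 190 FPKM in the wild-type gates and 155, 164 and 154 under the KO label. T cell markers were higher for 8 of 10 genes in the bulk library labelled KO (median 0.27). HSF1 and its co-chaperones were higher there for 10 of 15 genes (median 0.36). In the sorted cells most genes of both lists were lower under the KO label. This difference between the designs was not tested.

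The antibody libraries ask how chaperone RNA stands after blocking B7S1, PD-1 or both, again with 1 library each. The comparisons share the same 4 libraries, so the values are given side by side. Members past the 2-fold ratio were about as frequent as other genes or less so. In anti_B7S1 against Control, 13 of 52 members (25%) were higher, beside 37.9% of all genes, and 10 (19.2%) were lower, beside 29% of all genes. In anti_PD1 against Control, 21 of 55 (38.2%) were higher, beside 43.8%, and 12 (21.8%) lower, beside 23.8%. In combo against Control, 14 of 50 (28%) were higher, beside 40.1%, and 12 (24%) lower, beside 28% of all genes. Combo against anti_B7S1 gave 13 of 52 (25%) higher, beside 33.3%, and 11 (21.2%) lower, beside 30.8%. Combo against anti_PD1 gave 10 of 55 (18.2%) higher, beside 23.6%, and 16 (29.1%) lower, beside 32.7%. With so many genes past the fold between single libraries, the ratios of the genes below carry no error.

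Among the inducible genes, Hspa1a was at 28.5 FPKM in Control, 78.1 in anti_B7S1, 75.4 in anti_PD1 and 0.05 in combo. Hsph1 was at 111, 21.6, 107 and 295 FPKM in the same order. Dnajb1 was at 33.1 FPKM in Control and at 85.7, 81.6 and 91.7 after any antibody, and Hspa1b stayed at 3.22 or less in all 4. Combo therefore had the highest Hsph1 and the lowest Hspa1a of the 4, and Dnajb1 was past 2-fold above Control in each of the 3 treated libraries. The 2 near-identical genes Hspa1a and Hspa1b were both low in combo, at 0.05 and 2.79 FPKM.

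The cytosolic members with the highest levels were highest in combo. Hspa8 was at 1822 FPKM in Control, 2158 in anti_B7S1, 2203 in anti_PD1 and 4751 in combo, 2.61-fold above Control on the FPKM + 1 scale. Hsp90aa1 was at 368, 359, 581 and 787 FPKM, and Hsp90ab1 at 996, 779, 568 and 1281. Hspa4 was at 52.9, 23.6, 43.3 and 104 FPKM. These are the genes that gave combo the largest share of members in its summed FPKM, 1.99%, against 1.27% to 1.35% in the other 3 libraries. Other lists are given beside all genes, whose median log2 ratio in combo was 0.27 against Control, 0.06 against anti_B7S1 and -0.15 against anti_PD1. The shares of all genes higher in combo were 54.6%, 51.3% and 46.0% in the same order. T cell markers were higher in combo for 9 of 10 genes against Control (median 0.34), 10 of 10 against anti_B7S1 (0.51) and 9 of 10 against anti_PD1 (0.60), and summed to 5824 FPKM against 3862, 4071 and 4037. Genes for HSF1 and its co-chaperones were higher for 13 of 17 against Control (median 0.21), 12 of 17 against anti_B7S1 (0.23) and 14 of 16 against anti_PD1 (0.56). The dissociation and immediate early list was lower in combo than in Control for 11 of 15 genes (median -0.46). Against Control it was also lower for 10 of 14 genes in anti_B7S1 (median -0.48) and 10 of 15 in anti_PD1 (median -0.77). Combo was lower for 8 of 15 genes against anti_B7S1 and 5 of 14 against anti_PD1. The list summed to 4523, 2629, 2652 and 2958 FPKM in Control, anti_B7S1, anti_PD1 and combo. The part of these lists in the cytosolic values was not tested.

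ER members did not follow the cytosolic ones. Hspa5 was highest in Control, at 1297 FPKM, and stood at 649, 817 and 445 in anti_B7S1, anti_PD1 and combo, 2.91-fold lower in combo than in Control. Hsp90b1 was at 221, 362, 366 and 182 FPKM. Dnajb9 was at 0.03 FPKM in Control and at 66.3, 72.6 and 45.1 in the treated libraries, and Dnajb11 was at 1.13 against 48.4, 107 and 94.8. Dnajc7, a cytosolic J-domain gene, was listed at 0 in Control and at 66.0, 30.4 and 75.3 after treatment, and Hspbp1, an HSP70 exchange factor, at 0 against 60.1, 35.9 and 49.1. Control had the fewest genes at 1 or more, 5752 against 6913 to 8640 in the others, and the part of this in the values at or near 0 was not tested. Of the unfolded protein response genes outside the family, 0 of 17 were past the fold upward and 7 downward in anti_B7S1 against Control (median -0.56), 4 and 1 of 19 in anti_PD1 against Control (0.34), and 3 and 3 of 18 in combo against Control (0.27), beside the shares of all genes given above. In the same order, the medians of all genes were 0.20, 0.49 and 0.27. Against anti_B7S1, combo had 8 of 18 past the fold upward and 2 downward (median 0.89, all genes 0.06). Against anti_PD1 it had 2 and 3 of 18 (median -0.19, all genes -0.15).

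Mitochondrial members and TRiC had no common order over the 4 libraries. Hspd1 was at 164, 186, 155 and 216 FPKM, Hspe1 at 247, 170, 113 and 132, and Hspa9 at 48.2, 58.4, 97.6 and 59.8. Cct3 and Cct4 were lowest in Control, at 52.8 against 153, 157 and 175 FPKM and at 44.4 against 253, 159 and 139, whereas Cct2 was highest there, at 262 against 76.0, 83.8 and 121. Subunits of one complex thus went opposite ways between the same libraries. Dnaja1 was at 146, 197, 215 and 225 FPKM, and Dnajb4 and Dnajb6 were lowest in combo, at 57.4 and 65.6 FPKM against 97.1 to 137 and 118 to 200 in the others. Several members were listed at 0 in 1 library and well above it in another: Dnaja3 was at 37.1, 51.4, 6.19 and 0 FPKM, Dnajc30 at 44.5, 38.2, 12.0 and 0, Dnajc4 at 42.5, 0, 12.2 and 48.0, and Dnajc13, an endosomal protein, at 23.0, 0, 7.75 and 19.8. Dnajc3 was at 32.1 FPKM in Control and 0.14 in anti_B7S1, and Dnaja4 at 28.9 in Control and 0.09 in anti_PD1. Hspa14, which acts on ribosomes, was at 65.4 and 94.9 FPKM in the single antibody libraries against 2.38 in Control and 1.52 in combo. Such values at or near 0 in 1 of 4 libraries have no replicate to set them against.

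**Figure D4:**
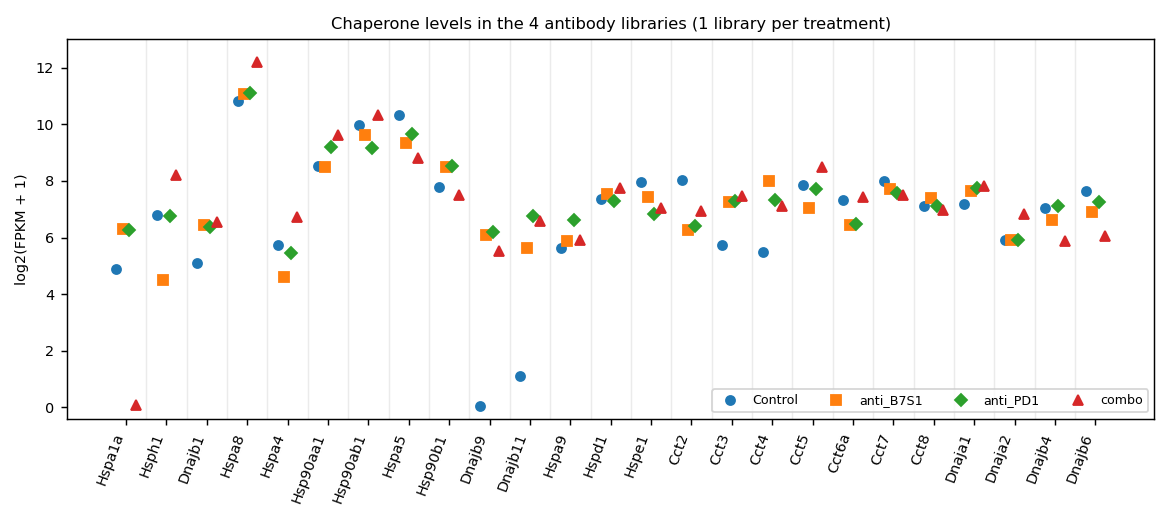
Level as log2(FPKM + 1) of 25 members in the Control (circles), anti_B7S1 (squares), anti_PD1 (diamonds) and combo (triangles) libraries, 1 library per treatment and so no error bars. Hspa8, Hsph1 and Hsp90aa1 are highest in combo, Hspa5 is highest in Control, and Hspa1a is near 0 in combo.

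The genes whose log2 values ran most like the mean of Hsph1 and Dnajb1 over the 9 sorted libraries, among 6410 genes whose mean reached 5 FPKM, were Ercc3 (r = 0.99), Dync1li1 (0.97), Gapdh (0.96), Eno1 (0.96), Fkbp8 (0.96), Nosip (0.96), Nudc (0.95) and Vgll4 (0.95). None is a member. The first other member was Dnajc1, at rank 77 with r = 0.86, and Dnajc15 ran the opposite way, at rank 6406 with r = -0.95. Hsph1 and Dnajb1 themselves correlated at 0.23 over these libraries after this centring, which leaves the difference between genotype labels in the values. These correlations describe 9 libraries that share gates, sets and scaling.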

How the data were processed

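RNA of T cells from tumours was measured in 15 libraries whose cDNA was made with a kit for very small RNA inputs, as the protocol in the labels states. RPKM stand in the bulk files and FPKM in all others, as computed by the authors, per the file headers; both scale reads to transcript length and library size, so a few very abundant transcripts lower the values of the rest. HISAT2, Bowtie2, RSEM and the build mm10 are named without versions or roles, per the submitters' processing notes; annotation and filters are not given in the sources used here. A symbol on several lines of a table was dropped there. The depth per library is unknown, so no counting intervals are given and count tests were not run.

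Populations were compared with limma 3.58.1 (R 4.3.3) on log2(FPKM + 1) over 6 wild-type libraries, and genotypes over 6 libraries of set 2 and KO with the population as a block, for genes listed in every library of the fit whose mean reached 1 FPKM, with Benjamini-Hochberg adjustment over all genes and a threshold of 0.05. In single libraries a gene needed a 2-fold ratio on value + 1 and at least 5 in the higher library. The change from library 1 to library 2 of a gate ran together in pairs of gates (r = 0.401, 0.269 and 0.193, 10411 genes). Wild-type libraries with the same number thus share a difference between sets. Whether they came from the same mice is not given in the labels. The main fits of gates did not block on this number. The fits were also run on simulated data, drawn with less than the observed spread and with no difference between sets. That run cannot show how the fits perform on these libraries. The members named were the 4 inducible genes, fixed genes of each role and, in each comparison, the members with the largest differences; members, roles and lists were chosen with earlier results of these data known. Alternatives were other pseudocounts (0.1 and 5), filters, scalings, blocks and leaving out each library.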

Additional observations from a re-analysis of the deposited data

Results flagged for a closer look

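Each antibody can be read in 2 ways that use different libraries: anti_PD1 against Control and combo against anti_B7S1 for the PD-1 antibody, and anti_B7S1 against Control and combo against anti_PD1 for the B7S1 antibody. Members listed here were past 2-fold in opposite directions in the 2 readings of 1 antibody; each value is the log2 ratio of the second reading minus that of the first, which is the same for both antibodies by construction. With 1 library per treatment the difference was not tested. Hspa1a was higher in the first reading and lower in the second for both antibodies, with a difference of -7.61. The same pattern for both antibodies was seen in Dnajc11 (-7.28) and Hspa14 (-9.55), and the reverse in Dnajc13 (5.83) and Dnajc4 (7.34). For the PD-1 antibody alone, Hspa13 gave -5.06, Hspa2 -4.79 and Dnajc15 3.003. For the B7S1 antibody alone, Hsph1 gave 3.77 and Hspa4 2.38.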

How the results depend on the processing

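No member passed limma's threshold in the 4 replicated comparisons or in any of their 56 alternatives. The replicate block, which pairs the wild-type libraries by number, gave 0 members in each population comparison, while its calls over all genes went from 0 to 2 in TIM-3_SP against DN and to 7 in B7S1R_SP against TIM-3_SP, and remained 0 in B7S1R_SP against DN.

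The counts moved more. The 11 members below every wild-type library under the KO label (17.5%, all genes 9.99%) became 5 with median-centred libraries (7.94%, all genes 5.40%) and 13 to 21 when 1 library was left out (20.3% to 34.4%, all genes 12.6% to 22.5%). Without both libraries of B7S1R_SP, TIM-3_SP or DN, an alternative chosen after seeing the data, they became 24, 23 and 18 (38.7%, 37.7% and 28.6%, all genes 28.0%, 27.3% and 15.7%); with fewer libraries to separate, the share of all genes was higher too. The 24 members lower in all 3 gates became 15 after centring (23.8%), beside 14.4% of all genes lower and 23.6% higher. The 6 bulk members past the fold became 3 with a pseudocount of 5 (1 higher, 2 lower; all genes 5.23% and 6.37%) and 3 of 39 tested with at least 20 RPKM in the higher library (all higher; all genes 6.16% higher and 7.75% lower). The 26 of 55 members of combo against anti_PD1 became 16 of 43 with at least 20 FPKM (7 higher, 9 lower; all genes 23.9% and 22.7%).

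Of 648 alternatives for 47 single-gene values, 637 kept their direction and 11 turned it, in 7 values. Hspa1a under the KO label became 0.13 after centring and ran from -1.01 to 0.87 with 1 library left out. With 1 wild-type library left out, TIM-3_SP against DN ran from -0.81 to 1.12 for Hsph1, -0.14 to 0.37 for Dnajb1 and -0.66 to 0.046 for Hsp90aa1. Hspa8 ran from -0.20 to 0.71 in B7S1R_SP against TIM-3_SP and from -0.64 to 0.019 against DN, and Hsp90aa1 from -0.14 to 1.28 against DN. A lone library left in a gate is assumed to vary like the other gates. Apart from the leave-outs, the cause was not tested. The unknown depth limits what values near 0 can show.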
